A study of Homo sapiens with 15 samples.

Results

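The 10 genes described here carry glucose into the cell and turn it into lactate: SLC2A1, HK1, HK2, PFKP, ALDOA, GAPDH, PGK1, ENO1, PKM and LDHA. They were chosen by name, with earlier results of these data known. Each was found in the count table through its Ensembl identifier, and they are 10 of the 60670 genes in that table. All 10 passed the filter on low counts, which kept 18563 genes. The cells were HT-1080, an established line from a human fibrosarcoma, a tumour of connective tissue, grown at 5% oxygen in serum free of tetracycline. Libraries fell into 5 groups with 3 in each. The first was cycling cells in DMSO, the vehicle, with the time label 6 h. The other 4 were senescent cells, made so over 6 days by a dominant negative form of TRF2, the telomere-binding protein that the gene TERF2 encodes, and then kept in DMSO or in GNF-7 at 1 uM, each for 6 h and for 24 h. GNF-7 is a tyrosine kinase inhibitor, and the study asks how it acts on senescent cells through the kinase GCN2. The 4 senescent groups all carry the dominant negative TRF2. No cycling library received GNF-7 and none was labelled 24 h, so effects of GNF-7 and of time are read in senescent cells alone. How the mutant protein was delivered, and whether the cycling cells held the same construct, is not given in the sources used here. The labels call the 3 libraries of a group biological replicates without saying that they came from separate cultures, so p-values measure the spread between these libraries.

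Glycolysis splits glucose into pyruvate in the cytosol and yields ATP without oxygen. SLC2A1 (GLUT1) is the main glucose carrier of the plasma membrane in many cultured cells, and the hexokinases HK1 and HK2 trap glucose by phosphorylating it. PFKP is a phosphofructokinase, the step that commits sugar to glycolysis. ALDOA splits the 6-carbon sugar, GAPDH and PGK1 carry out the first oxidation and the first ATP-yielding step, ENO1 and PKM give pyruvate and more ATP, and LDHA turns pyruvate into lactate, which renews the NAD that GAPDH needs. Tumour cells often make lactate even where oxygen is present. The transcription factors HIF-1 and MYC are known to act on many of these genes, HIF-1 through the core letters ACGTG or GCGTG and MYC through the E box CACGTG.

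Library totals ranged from 25991007 to 32323393 counts. TERF2 checked the labels: its mean level rose from 58.2 CPM in cycling cells to 287 CPM in the senescent vehicle group at 6 h (CPM, counts per 1e6 of the scaled library size, 3 libraries a mean). Between the same groups the proliferation gene MKI67 went from 509 to 149 CPM, and the cell cycle inhibitor CDKN1A from 186 to 501 CPM. The senescent groups differed among themselves. With GNF-7 at 6 h, TERF2 stood at 222, MKI67 at 114 and CDKN1A at 518 CPM. At 24 h TERF2 was 220 CPM in vehicle and 132 with GNF-7, MKI67 125 and 39.1, and CDKN1A 560 and 468. The mesenchymal markers VIM, FN1, CD44 and CDH2 were present in every group, while THY1 had 0 counts in each of the 15 libraries, which allows up to 3 counts in each. Mitochondrially encoded genes took 4.32% of counts in cycling cells, 11.7% and 16.9% in senescent vehicle cells at 6 h and 24 h, and 14.1% and 23.3% with GNF-7 at 6 h and 24 h. Their share thus moved with the groups. With these genes left out of the scaling, none of the 10 genes gained or lost a call in any of the 6 comparisons below.

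The 10 genes together took 1.545% ± 0.014 (SD, n = 3) of all counts in cycling cells and 1.289% ± 0.003 in senescent vehicle cells at 6 h. With GNF-7 for 6 h the share was 1.158% ± 0.040. Vehicle cells at 24 h had 1.45% ± 0.05, and cells given GNF-7 for 24 h had 0.927% ± 0.010. None of the 4 pairs of groups compared overlapped, so the members' transcripts made up less of the library after senescence and after GNF-7, and more of it in vehicle cells at the later time. The exact 2-sided permutation test gave p = 0.1 for each of the 4 comparisons (adjusted p = 0.1), the smallest value that 3 against 3 allows. Counted among transcripts outside the mitochondrial genome, the shares were 1.615%, 1.461%, 1.349%, 1.745% and 1.208% in the same order, so that vehicle cells at 24 h lay above cycling cells on that scale and below them on the first. In bulk RNA, fewer cells with a transcript and less of it per cell cannot be told apart.

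**Figure D1:**
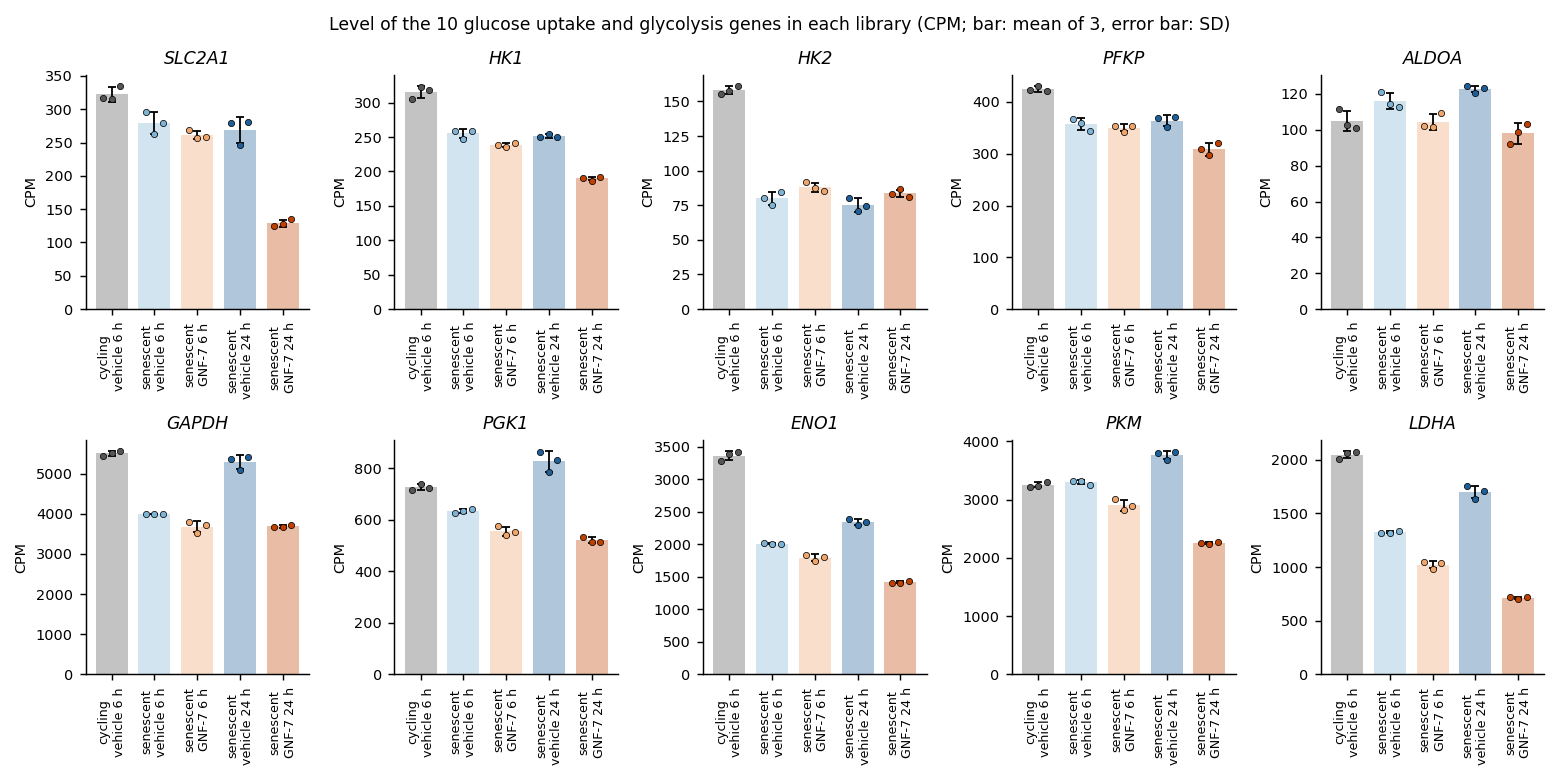
Level of each of the 10 genes in CPM (vertical axis, starting at 0) in the 5 groups: points are libraries, bars the mean of 3 and error bars the SD. LDHA runs from 2048 CPM in cycling cells to 714 CPM after 24 h of GNF-7, HK2 is high in cycling cells alone, and GAPDH, PGK1, ENO1, PKM and LDHA are higher in vehicle cells at 24 h than at 6 h.

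Per length, in CPM per kilobase of exon in GENCODE release 29, GAPDH led the 10 genes in cycling cells with 1848 ± 19.5 (SD, n = 3). ENO1 followed with 637 ± 13.4, PKM with 379.9 ± 5.33 and LDHA with 329.8 ± 5.41. PGK1 stood at 132, PFKP at 88.0, SLC2A1 at 68.3, HK1 at 50.1, ALDOA at 26.8 and HK2 at 26.1. The 5 members GAPDH, ENO1, PKM, LDHA and PGK1 thus had higher transcript levels per length than PFKP, SLC2A1, HK1 and HK2. ALDOA is left out of that order, since reads in shared exons may be missing from its count. The value of ALDOA is uncertain: 42.3% of its exon bases and 93.8% of its coding bases lie in AC093512.2, a gene on the same strand that held 649 counts over all libraries, and how reads in shared exons were assigned is not given in the sources used here. GAPDH shares 14.2% of its exon bases with a gene on the other strand, which held 7142 counts in all. Processed pseudogenes named after LDHA held 0.773% to 1.12% of its counts, and those of the other members at most 0.151%.

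The letters described above were searched in the promoters, as a description. Windows are shown for LDHA, PGK1, ENO1 and HK2, which hold a match to ACGTG or GCGTG before the RefSeq start. The matches of SLC2A1 and PKM lie after that start, and ALDOA is left out since its counts are uncertain. Gene spans printed below are from GENCODE 29, whose outermost start can differ from the RefSeq start. The windows of PGK1, ENO1 and HK2 therefore lie inside the printed spans. RefSeq promoters (GRCh38.p14, 250 bases before to 50 after the start) were found for 10 of 10 genes. Both strands were searched. ACGTG was present in 5 of the 10 and in 21.4% of 35116 promoters, GCGTG in 6 of the 10 and in 36.5%, and either in 8 of the 10 and in 48.4%. The E box CACGTG, which contains ACGTG on each strand and so is counted there too, was present in GAPDH and LDHA and in 7.26% of promoters. Of TGATGNAA, a form of the element that C/EBP and ATF proteins bind, HK1 alone held a match, against 3.62% of promoters. A match describes the letters and shows no binding. The promoters of the 10 genes ran from 46.7% (HK1) to 74.3% (HK2) in GC content, and the 35116 promoters were not matched for it. Whether GC content bears on these shares was not tested. For PFKP and GAPDH the bases after the RefSeq start were not found in a GENCODE 29 transcript, so their windows are not shown. Capitals mark the matches, each sequence reads 5′ to 3′ on the gene's strand, and a capital CACGT is ACGTG read on the other strand.
LDHA, chr11:18394368-18394397, plus strand: actcccagcgCACGTGgagcagtctgccgg
LDHA, chr11:18394468-18394497, plus strand: ccgactcaCACGTGggttcccgCACGTccg
PGK1, chrX:78104044-78104073, plus strand: ggACGTGacaaacggaagccgCACGTctca
ENO1, chr1:8878741-8878770, minus strand: ggagctgaggggGCGTGccccggaggcggg
HK2, chr2:74834064-74834093, plus strand: gccaatggGCGTGcgCACGTcactgatccg

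SLC2A1 (ENSG00000117394), on chromosome 1 from 42925375 to 42959176 on the minus strand (GRCh38), encodes the glucose carrier GLUT1. Its level was 317, 315 and 335 CPM in cycling cells, against 296, 263 and 279 CPM in senescent cells given vehicle for 6 h. After 6 h of GNF-7 it was 269, 257 and 258 CPM, within the range of the vehicle libraries in 1 of 3. The 24 h vehicle libraries held 279.8, 246 and 281 CPM and the 24 h GNF-7 libraries 125, 127 and 135 CPM. Those last 3 libraries lay far below all 12 others. The fall at 24 h was 2.09-fold (log2 fold change -1.06, SE 0.0443, adjusted p = 3.12e-26), while at 6 h the log2 difference of -0.0982 (SE 0.0428) missed the threshold (adjusted p = 0.0638). It was called at 6 h with no filter on low counts (adjusted p = 0.0182) and with a term for replicate number in edgeR (adjusted p = 0.0235). It was also called without senescent vehicle 6 h replicate 2 (log2 value -0.142, adjusted p = 0.011), without GNF-7 6 h replicate 1 (adjusted p = 0.0399) and without vehicle 24 h replicate 2 (adjusted p = 0.0313). The larger fall at 24 h than at 6 h was itself past the threshold, with a log2 value of -0.96 (SE 0.0615, adjusted p = 5.08e-18).

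HK1 (ENSG00000156515, chromosome 10, 69269984 to 69401884, plus strand) is the hexokinase of most tissues, and HK2 (ENSG00000159399, chromosome 2, 74833981 to 74893359, plus strand) is the isozyme that many tumours express. HK1 ran from 316 ± 9.02 CPM (SD, n = 3) in cycling cells to 255 ± 6.64 in senescent vehicle cells at 6 h, and to 189.8 ± 2.59 after 24 h of GNF-7. HK2 stood at 156, 157 and 161 CPM in cycling cells, and at 80.0, 75.3 and 84.7 CPM in the senescent vehicle group at 6 h. The highest of the 12 senescent libraries held 91.5 CPM, so the cycling ones stood apart. With GNF-7, HK2 was 91.5, 87.3 and 85.3 CPM at 6 h, and the 24 h libraries held 80.5, 71.0 and 74.1 CPM in vehicle and 83.0, 86.6 and 81.1 CPM with GNF-7. The GNF-7 libraries were above the vehicle ones at each time by narrow margins. HK2 fell 1.98-fold with senescence (log2 fold change -0.98, SE 0.0454, adjusted p = 1.56e-28). It rose with GNF-7 by 0.138 on the log2 scale at 6 h (SE 0.0463, adjusted p = 0.0135) and by 0.151 at 24 h (SE 0.0468, adjusted p = 0.00439), against log2 fold changes of HK1 of -0.0975 (SE 0.0355, adjusted p = 0.0233) and -0.406 (SE 0.0359, adjusted p = 1.91e-15). These small calls at 6 h were lost in some fits: HK2 without senescent vehicle 6 h replicate 2 (adjusted p = 0.159), without GNF-7 6 h replicate 1 (0.0948) and with no filter (0.0641). HK1 was lost without GNF-7 6 h replicate 2 (adjusted p = 0.127) and without senescent vehicle 6 h replicate 1 (0.0866) or 3 (0.0831). The 24 h rise of HK2 was lost without vehicle 24 h replicate 2 (log2 value 0.106, adjusted p = 0.0755).

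PFKP (ENSG00000067057, chromosome 10, 3066333 to 3137712, plus strand) varied little: its group means lay between 309 and 425 CPM, a range of 1.38-fold. It fell 1.19-fold with senescence (adjusted p = 6.5e-09) and 1.18-fold with 24 h of GNF-7 (adjusted p = 6.24e-08). Neither the 6 h GNF-7 difference (log2 value -0.0292, adjusted p = 0.561) nor that between the vehicle times passed the test. ALDOA (ENSG00000149925, chromosome 16, 30064164 to 30070457, plus strand), whose reads are uncertain as said above, stood at 111, 103 and 101 CPM in cycling cells, against 121, 114 and 113 CPM in the senescent vehicle group at 6 h. It was the one member called higher with senescence, by 1.11-fold (log2 fold change 0.145, SE 0.0446, adjusted p = 0.00324). With GNF-7 it fell 1.11-fold at 6 h (adjusted p = 0.00364) and 1.25-fold at 24 h (adjusted p = 4.32e-09).

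GAPDH (ENSG00000111640, chromosome 12, 6533927 to 6538374, plus strand) is often used as a reference gene. Here its libraries ranged from 3527 to 5555 CPM, and its group means by 1.49-fold. Cycling libraries held 5443, 5524 and 5555 CPM and senescent vehicle libraries at 6 h held 4005, 3994 and 3992 CPM, with no overlap. With GNF-7 for 6 h the values were 3796, 3527 and 3727 CPM, while at 24 h vehicle libraries had 5364, 5084 and 5404 CPM and GNF-7 libraries 3665, 3662 and 3729 CPM. The 24 h vehicle libraries were thus almost as high as the cycling ones, and the GNF-7 libraries of both times overlapped each other. The log2 fold change with GNF-7 was -0.118 at 6 h (SE 0.0316, adjusted p = 0.00181), lost without GNF-7 6 h replicate 2 (adjusted p = 0.0602), and -0.52 at 24 h (SE 0.0317, adjusted p = 2.17e-22). In scaled CPM the larger difference at 24 h therefore came with a rise of the vehicle libraries, by 0.403 between 6 h and 24 h (SE 0.0316, adjusted p = 1e-15). The GNF-7 means on that scale were 3683 CPM at 6 h and 3685 CPM at 24 h. GNF-7 at 24 h against 6 h was not tested, and how these groups compare on another scale is not given here.

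PGK1 (ENSG00000102144, chromosome X, 77910739 to 78129296, plus strand) follows GAPDH in the pathway and followed it in part in these data. Its level was 715, 738 and 723 CPM in cycling cells, then 626, 634 and 640.1 CPM in the senescent vehicle group at 6 h, and 574, 539 and 551 CPM with GNF-7. At 24 h it was 864, 784 and 831 CPM in vehicle and 533, 515 and 514 CPM with GNF-7. The vehicle libraries at 24 h were higher than all others, cycling ones included. PGK1 fell 1.14-fold with GNF-7 at 6 h (log2 fold change -0.19, SE 0.0347, adjusted p = 5.98e-06) and 1.59-fold at 24 h (log2 fold change -0.67, SE 0.0348, adjusted p = 1.37e-25).

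ENO1 (ENSG00000074800, chromosome 1, 8861000 to 8879250, minus strand), an enolase, was among the members with the larger fall in senescence. Cycling libraries held 3283, 3381 and 3421 CPM and senescent vehicle libraries at 6 h 2018, 2006 and 1997 CPM. With GNF-7 the values were 1842, 1739.6 and 1803 CPM at 6 h, and at 24 h they were 2382, 2300.4 and 2338 CPM in vehicle and 1405, 1411 and 1437 CPM with GNF-7. Cycling libraries were above all senescent ones, and no neighbouring groups in the order of levels overlapped. ENO1 fell 1.68-fold with senescence (log2 fold change -0.74, SE 0.0315, adjusted p = 1.79e-30), 1.12-fold with GNF-7 at 6 h (adjusted p = 2.38e-05) and 1.65-fold at 24 h (log2 fold change -0.72, SE 0.0316, adjusted p = 2.46e-29).

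PKM (ENSG00000067225, chromosome 15, 72199029 to 72231822, minus strand), the pyruvate kinase gene whose M1 and M2 forms a gene count cannot tell apart, showed little difference between cycling and senescent cells. It stood at 3219.6, 3240.5 and 3307 CPM in cycling cells, against 3328.5, 3314 and 3257 CPM in the senescent vehicle group at 6 h, which overlap (log2 value 0.0194, SE 0.0311, adjusted p = 0.586, 95% interval -0.0416 to 0.0804). GNF-7 libraries held 3006, 2818 and 2896 CPM at 6 h and 2251, 2239 and 2277 CPM at 24 h, beside 3796, 3688 and 3817 CPM in vehicle at 24 h. PKM was therefore low where GNF-7 had been given and at its highest in vehicle cells at 24 h. It fell 1.14-fold with GNF-7 at 6 h (adjusted p = 1.84e-06) and 1.67-fold at 24 h (log2 fold change -0.74, SE 0.0313, adjusted p = 4.79e-30).

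LDHA (ENSG00000134333, chromosome 11, 18394388 to 18408425, plus strand), at the end of the pathway, had the widest range of group means among the 10 genes, 2.87-fold. Cycling libraries held 2010.2, 2058.5 and 2075 CPM, senescent vehicle libraries at 6 h 1319, 1319 and 1339.8 CPM, and GNF-7 libraries at 6 h 1049, 986 and 1036 CPM. At 24 h the values were 1751, 1637 and 1705 CPM in vehicle and 724, 702 and 717 CPM with GNF-7. No pair of groups overlapped, and the order from low to high was GNF-7 at 24 h, GNF-7 at 6 h, senescent vehicle at 6 h, senescent vehicle at 24 h and cycling. LDHA fell 1.54-fold with senescence (log2 fold change -0.63, SE 0.0327, adjusted p = 5.7e-26), 1.3-fold with GNF-7 at 6 h (log2 fold change -0.37, SE 0.0327, adjusted p = 5.29e-15) and 2.38-fold with GNF-7 at 24 h (log2 fold change -1.25, SE 0.0332, adjusted p = 1.44e-40).

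Senescent against cycling cells, both in vehicle at 6 h, asks how the 10 genes stood once senescence was established. HK2 fell 1.98-fold, ENO1 1.68-fold, LDHA 1.54-fold and GAPDH 1.38-fold. HK1, PFKP, SLC2A1 and PGK1 fell by 1.14-fold to 1.24-fold, ALDOA rose 1.11-fold and PKM did not pass the test. Thus 9 of 10 were called at an adjusted p under 0.05, where 70.0% of all genes tested were, with 8 called lower against 34.4% of all genes and 1 called higher against 35.6%. In 9 of 10 the groups did not overlap, as in 71.5% of genes. The median log2 fold change was -0.279, beside 0.0623 over all genes. Abundant genes fell more often in general: of the 2106 genes with a mean at or above that of HK2, the lowest member at 97.0 CPM, 59.4% were called lower and their median was -0.23, close to that of the members. HK2 ranked 172, ENO1 333 and LDHA 457 from the lowest of those 2106. The calls of SLC2A1 and PGK1 depended on scaling: with total counts and no composition factor their adjusted p-values were 0.126 and 0.127, and PKM was then called higher (log2 value 0.152). With genes under a mean of 5 CPM left out they were 0.229 and 0.193, and PKM was again called higher (0.170), as it was with only the groups compared (0.0783).

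GNF-7 against vehicle at 6 h gave small changes. LDHA fell 1.3-fold, PGK1, PKM, ENO1, ALDOA, GAPDH and HK1 fell by 1.07-fold to 1.14-fold, and HK2 rose 1.1-fold. SLC2A1 and PFKP did not pass the test. The count was 8 of 10 called, 1 higher and 7 lower, against 39.3% of all genes called, 17.9% higher and 21.4% lower, and 8 of 10 had groups without overlap, as in 47.7% of genes. The median of the members was -0.136 and that of all genes 0.00729. Among the 2106 abundant genes 50.6% were called lower and the median was -0.0989. LDHA, ranked 180 from the lowest of those genes, was the lowest-ranked member. With genes under a mean of 5 CPM left out, 5 of 10 remained called, and HK1, ALDOA and GAPDH were lost. The share of all genes called in that fit is not given here, so this count is not read against it.

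After 24 h of GNF-7 all 10 genes were called, 9 lower and HK2 higher, against 58.9% of all genes called, 29.3% higher and 29.7% lower. LDHA fell 2.38-fold and SLC2A1 2.09-fold, PKM, ENO1, PGK1 and GAPDH fell by 1.43-fold to 1.67-fold, and HK1, ALDOA and PFKP by 1.18-fold to 1.33-fold. All 10 genes had groups without overlap, as in 63.2% of all genes. The members' median was -0.594, beside 0.0382 over all genes and -0.248 over the 2106 abundant ones, of which 65.3% were called lower. LDHA ranked 48, SLC2A1 95, PKM 242, ENO1 257 and PGK1 302 from the lowest of the 2106, while PFKP (1081) lay near the middle. Apart from HK2, given above, each of these calls held with each library left out in turn and under every other setting tried.

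**Figure D2:**
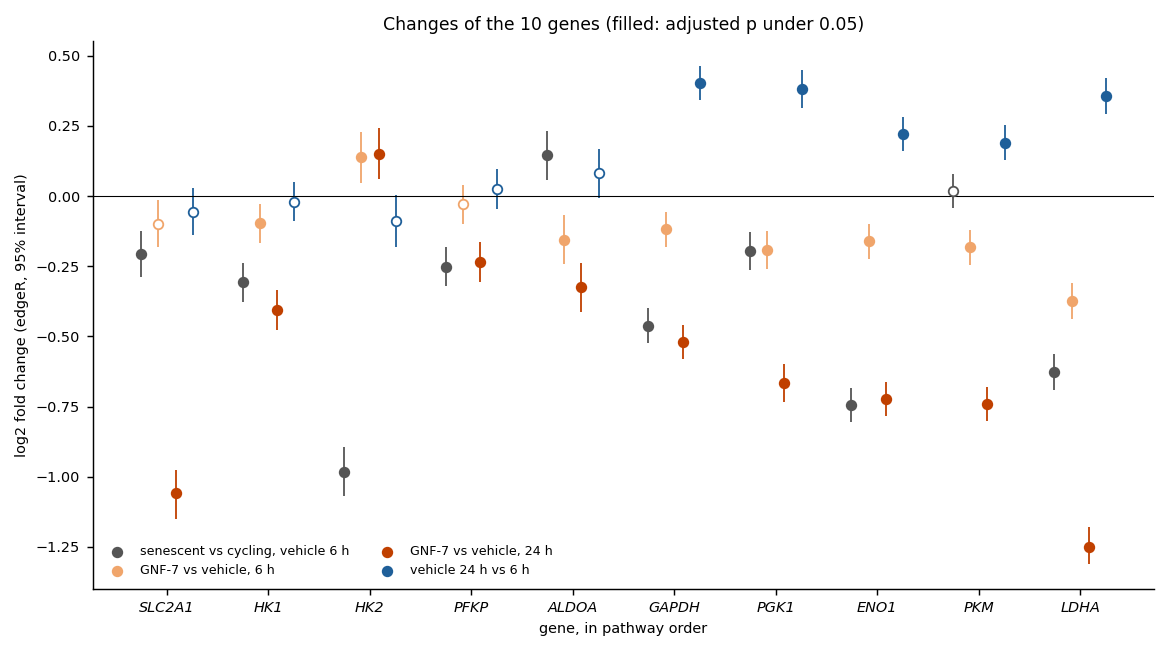
log2 fold change of each gene (vertical axis, with 95% intervals from edgeR) in 4 comparisons, genes in pathway order; filled points have an adjusted p under 0.05. LDHA and SLC2A1 lie lowest with GNF-7 at 24 h (-1.25 and -1.06), HK2 lies lowest with senescence (-0.98), and the vehicle times differ for GAPDH, PGK1, ENO1, PKM and LDHA.

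The GNF-7 effect at 24 h minus that at 6 h was tested as 1 contrast. Of the 10 genes 9 were called lower, against 18.0% of all genes and 50.0% of the abundant ones, and 30.8% of all genes were called in either direction. HK2 was not called (log2 value 0.0134, SE 0.0658, adjusted p = 0.915, 95% interval -0.116 to 0.142). SLC2A1 and LDHA had the largest differences, -0.96 and -0.88, and the members' median was -0.438 beside -0.143 for abundant genes. The call of ALDOA (-0.17, adjusted p = 0.0316) was lost with total counts, with genes under a mean of 5 CPM left out, and with 1 library left out, which was replicate 2 or 3 of the 6 h vehicle group, replicate 1 or 3 of the 24 h vehicle group, or a GNF-7 library (replicate 3 at 6 h, replicate 1 at 24 h), with adjusted p-values from 0.058 to 0.129 in edgeR. This contrast holds the same 12 senescent libraries as the comparisons at each time, and the change of the vehicle libraries between 6 h and 24 h enters it.

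Vehicle cells at 24 h against 6 h, both senescent, shows that change by itself. GAPDH rose 1.32-fold, PGK1 1.3-fold, LDHA 1.28-fold, ENO1 1.17-fold and PKM 1.14-fold, all enzymes of the later steps. SLC2A1, HK1, HK2, PFKP and ALDOA did not pass the test, with log2 values from -0.0885 to 0.0815. That made 5 of 10 called, all higher, where 18.5% of all genes were called, 9.26% higher and 9.29% lower. Of the abundant genes 26.3% were called higher. Among the 12 other glycolytic enzymes and isozymes 8 were called higher and 0 lower, so the rise was not limited to later steps. Mean levels of GPI, PFKL and ALDOC, of earlier steps, went from 282, 138 and 36.7 CPM to 312, 165 and 54.3 CPM. PFKM went from 140 to 135 CPM. Groups did not overlap in 5 of 10 members and in 32.9% of genes. GAPDH, PGK1 and LDHA ranked 2077, 2071 and 2065 from the lowest of 2106. With total counts as the scale, the share of higher genes among all calls went from 49.9% to 12.5%, SLC2A1, HK1 and HK2 were called lower, and PKM was lost (adjusted p = 0.0648), while GAPDH, PGK1, LDHA and ENO1 were still called higher.

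Senescent cells after 6 h of GNF-7 against cycling vehicle cells gives the sum of both differences and shares its libraries with them. LDHA was 2.00-fold lower, ENO1 1.87-fold, HK2 1.8-fold and GAPDH 1.5-fold. Of the 10 genes 9 were called lower, against 36.1% of all genes and 63.3% of the abundant ones (75.7% of all genes were called), and ALDOA was not (log2 value -0.00934, adjusted p = 0.855). Groups did not overlap in 9 of 10, as in 76.6% of genes. PKM was called lower (log2 value -0.164), but its value was 0.0398, and not called, with genes under a mean of 5 CPM left out. ALDOA was called higher by edgeR with that filter (log2 value 0.194, adjusted p = 0.000161) and with total counts (0.136, adjusted p = 0.00633).

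Ratios of counts of isozymes within a library need no scaling between libraries. HK2 counts were 0.501 ± 0.0123 (SD, n = 3) of HK1 counts in cycling cells and 0.313 ± 0.0124 in senescent vehicle cells at 6 h. The ratio was 0.369 ± 0.0160 with GNF-7 at 6 h, and at 24 h it was 0.299 ± 0.0220 in vehicle and 0.440 ± 0.0208 with GNF-7. HK2 thus lost ground to HK1 in senescence and gained some of it with GNF-7 at both times, without overlap of the groups. The carrier ratio SLC2A1 to SLC2A3, where SLC2A3 encodes the high-affinity carrier GLUT3, was 6.43 ± 0.145 in cycling cells and 4.87 ± 0.215 in senescent vehicle cells at 6 h. It was 2.41 ± 0.0341 with GNF-7 at 6 h, and 5.02 ± 0.365 in vehicle against 1.82 ± 0.135 with GNF-7 at 24 h. At 6 h the lower ratio came with a rise of SLC2A3, and at 24 h with a rise of SLC2A3 and a fall of SLC2A1. SLC2A3 has a near-identical copy, SLC2A14, so its counts are uncertain.

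LDHA counts were 25.1 ± 0.484 times those of LDHB, the other common lactate dehydrogenase subunit, in cycling cells and 29.4 ± 0.664 times in senescent vehicle cells at 6 h. They were 24.3 ± 0.291 times with GNF-7 at 6 h, 34.0 ± 0.427 times in vehicle at 24 h and 18.6 ± 0.266 times with GNF-7 at 24 h. LDHA therefore lost ground to LDHB with GNF-7 at both times, and gained on it in senescence, where the log2 fold changes of LDHB and LDHA were -0.855 and -0.627. LDHB shares 33.4% of its exon bases with a gene on its strand. ENO1 was 44.3 ± 1.5 times ENO2, the enolase best known from neurons, in cycling cells, and 24.7 ± 0.687 times in senescent vehicle cells at 6 h. With GNF-7 at 6 h the ratio was higher than in vehicle, 27.76 ± 2.215. The groups did not overlap, but by a narrow margin: the lowest GNF-7 library had 25.22 and the highest vehicle library 25.2. At 24 h it was 22.65 ± 0.1825 in vehicle and lower with GNF-7, 11.6 ± 0.438. PFKP to PFKL was 3.08 ± 0.0831 in cycling cells and between 2.16 and 2.69 in the senescent groups. The exact 2-sided permutation test gave p = 0.1 wherever groups did not overlap, the smallest value possible, with an adjusted p of 0.111 over 30 tests.

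**Figure D3:**
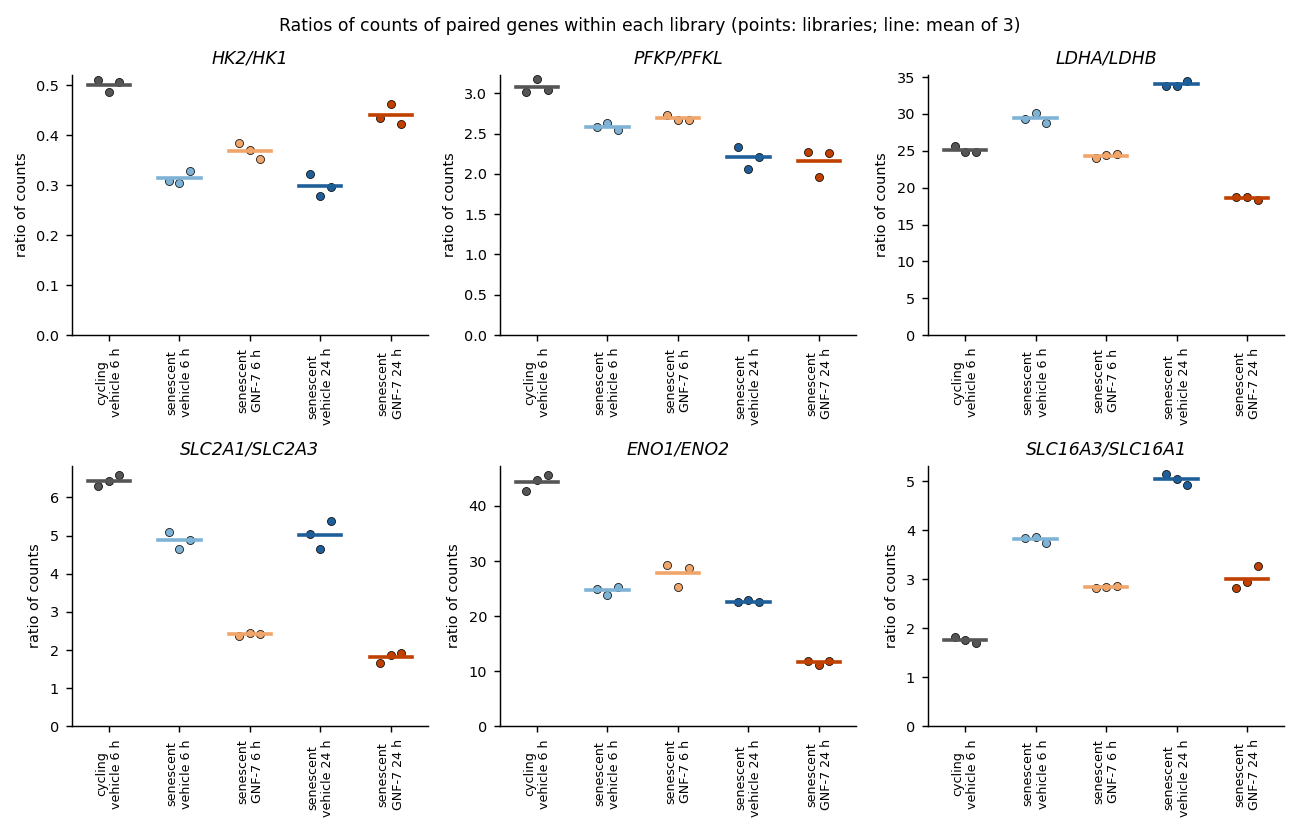
Ratio of the counts of paired genes in each library (vertical axis, starting at 0, no unit): points are libraries and lines the mean of 3. SLC2A1/SLC2A3 falls from 4.87 to 2.41 with GNF-7 at 6 h and from 5.02 to 1.82 at 24 h, and LDHA/LDHB is lowest, at 18.6, after 24 h of GNF-7.

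Around the 10 genes, 78 others of glucose handling were listed by role, and 72 passed the filter. In senescence 60 of 72 were called, 29 higher and 31 lower, in a fit where 70.0% of all genes were. GNF-7 at 6 h gave 41 of 72 (13 higher, 28 lower, with 39.3% of all genes called) and at 24 h 58 of 72 (20 higher, 38 lower, with 58.9%). The difference between the times gave 43 (12 higher, 31 lower, with 30.8% of all genes called), and vehicle at 24 h against 6 h gave 38 (27 higher, 11 lower, with 18.5%). In the 12 other glycolytic enzymes and isozymes, 7 were lower and 3 higher with senescence, 6 lower and 1 higher with GNF-7 at 6 h, and 9 lower and 3 higher at 24 h. Of all genes 34.4%, 21.4% and 29.7% were called lower in these comparisons, and of the abundant genes 59.4%, 50.6% and 65.3%. The enzymes between the members moved in the members' direction: GPI, which follows hexokinase, had log2 fold changes of -0.611 with senescence, -0.244 with GNF-7 at 6 h and -0.558 at 24 h. TPI1, which interconverts the products of aldolase, had -0.552, -0.239 and -0.845. PGAM1, ahead of enolase, had -0.692, -0.406 and -1.12. The larger of these adjusted p-values was 2.04e-07. The brain-type aldolase gene ALDOC fell by 1.24 with GNF-7 at 24 h (SE 0.0629, adjusted p = 3.86e-26), from 56.4, 50.0 and 56.5 CPM to 23.0, 22.7 and 23.3 CPM. ENO2 went against ENO1 at 24 h, with a log2 fold change of 0.243 (SE 0.0433, adjusted p = 2.04e-06).

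Among the 5 further genes of the SLC2A carrier family tested, not all of which carry glucose into the cell, 4 were higher and 0 lower with senescence. SLC2A1 fell. Of all genes 70.0% were called there and 35.6% were called higher. SLC2A3 rose with GNF-7 at 6 h, from 58.3, 56.6 and 57.2 CPM to 113, 105 and 107 CPM (log2 fold change 0.92, SE 0.0467, adjusted p = 2.02e-25). At 24 h its rise was 0.40 (SE 0.0481, adjusted p = 9.42e-11), so SLC2A1 and SLC2A3 moved in opposite directions. SLC2A12 (GLUT12) rose with senescence, from 8.04, 8.81 and 8.06 CPM to 23.9, 25.3 and 25.5 CPM (log2 fold change 1.58, SE 0.0860, adjusted p = 4.46e-25). It fell with 24 h of GNF-7 from 34.6, 31.2 and 34.0 CPM to 7.38, 7.05 and 5.71 CPM (log2 fold change -2.31, SE 0.0865, adjusted p = 8.92e-33). That gene shares 38.9% of its exon bases with one on the other strand.

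Lactate leaves and enters cells through the carriers MCT1 (SLC16A1) and MCT4 (SLC16A3). SLC16A1 fell with senescence, from 287, 289 and 298 CPM to 128, 120.5 and 125 CPM (log2 fold change -1.23, SE 0.0399, adjusted p = 2.36e-36), and did not pass the test with GNF-7 at 6 h. At 24 h it stood at 108, 97.7 and 106 CPM in vehicle and lower, at 78.1, 76.2 and 73.7 CPM, with GNF-7 (log2 fold change -0.455, SE 0.0423, adjusted p = 1.43e-14). SLC16A3 fell with GNF-7, with log2 fold changes of -0.443 at 6 h (SE 0.0377, adjusted p = 2.25e-15) and -1.20 at 24 h (SE 0.0384, adjusted p = 8.94e-36), near the values of LDHA. Of the 11 genes of pyruvate entry into mitochondria that were tested, 5 were lower and 0 higher with GNF-7 at 6 h, and 8 lower and 2 higher at 24 h. Of all genes, 39.3% were called at 6 h and 21.4% were lower, and at 24 h 58.9% were called and 29.7% were lower. PDP1, the phosphatase that switches pyruvate dehydrogenase on, had log2 fold changes of -0.589 at 6 h (SE 0.0440) and -1.11 at 24 h (SE 0.0443). PC, which makes oxaloacetate from pyruvate, fell by 1.08 at 24 h (SE 0.0884, adjusted p = 7.82e-17), and was not called at 6 h (log2 value -0.0446). PDK2, a kinase that switches pyruvate dehydrogenase off, rose from 1.25, 0.757 and 1.01 CPM to 17.2, 15.1 and 14.1 CPM with senescence (log2 fold change 3.95, SE 0.152), but 38.6% of its exon bases lie in a gene on the other strand.

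The side branches did not move as 1 block. Of the 7 pentose phosphate genes, 5 were lower and 1 higher with senescence, led by RPIA (log2 fold change -1.78, SE 0.0867), and 0 were called with GNF-7 at 6 h by edgeR, DESeq2 or voom, nor were any at an unadjusted p under 0.05 (0 of 7). With GNF-7 at 24 h 1 was higher and 2 were lower. Of all genes 70.0% were called with senescence, 34.4% lower, and 39.3% and 58.9% with GNF-7 at 6 h and 24 h. PCK2, which makes phosphoenolpyruvate from oxaloacetate in mitochondria and is a known target of the ATF4 arm of the stress response, fell with senescence and rose with GNF-7. Its values were 19.2, 19.4 and 17.7 CPM in vehicle and 119, 111 and 123 CPM with GNF-7 at 6 h (log2 fold change 2.65, SE 0.0565, adjusted p = 2.07e-44), and its rise at 24 h was 2.94 (SE 0.0563). GFPT1, the entry to the hexosamine branch, had log2 fold changes of 0.555 at 6 h and 1.09 at 24 h, while PGM1, which links glycogen to glycolysis, had -0.512 and -0.733.

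Regulators of the pathway were read as transcripts, not as proteins. HIF1A rose with senescence by 0.679 on the log2 scale (SE 0.0368) and by 0.177 with GNF-7 at 6 h (SE 0.0363, adjusted p = 5.6e-05). It fell by 0.489 with GNF-7 at 24 h (SE 0.0370, adjusted p = 3.36e-18). EPAS1, which encodes HIF-2 alpha, rose in all 3 of these comparisons, by 1.71, 0.448 and 1.14. MYC fell in all 3, with -0.933, -0.240 and -0.353. TXNIP, which lowers glucose uptake and is induced by glucose, rose by 1.73, 1.14 and 0.425. Its relative ARRDC4 rose by 2.53 with senescence. Of the 10 hypoxia-response genes outside glycolysis, 6 were higher and 2 lower with senescence, and 3 higher and 3 lower with GNF-7 at each time, beside 70.0%, 39.3% and 58.9% of all genes called with senescence and with GNF-7 at 6 h and 24 h. CA9, a carbonic anhydrase widely used as a marker of hypoxia, rose from 17.9, 18.6 and 18.3 CPM to 39.6, 32.2 and 35.7 CPM between the vehicle times. With 24 h of GNF-7 it stood at 9.65, 8.57 and 8.30 CPM (log2 fold change -2.02, SE 0.0836, adjusted p = 1.53e-30). That was the lowest value of the 10 hypoxia-response genes, whose median there was -0.0657 and highest value 1.07. Between the vehicle times 7 of the 10 were called higher and 1 lower, with 18.5% of all genes called. CA9 shares 38.5% of its exon bases with a gene on the other strand.

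**Figure D4:**
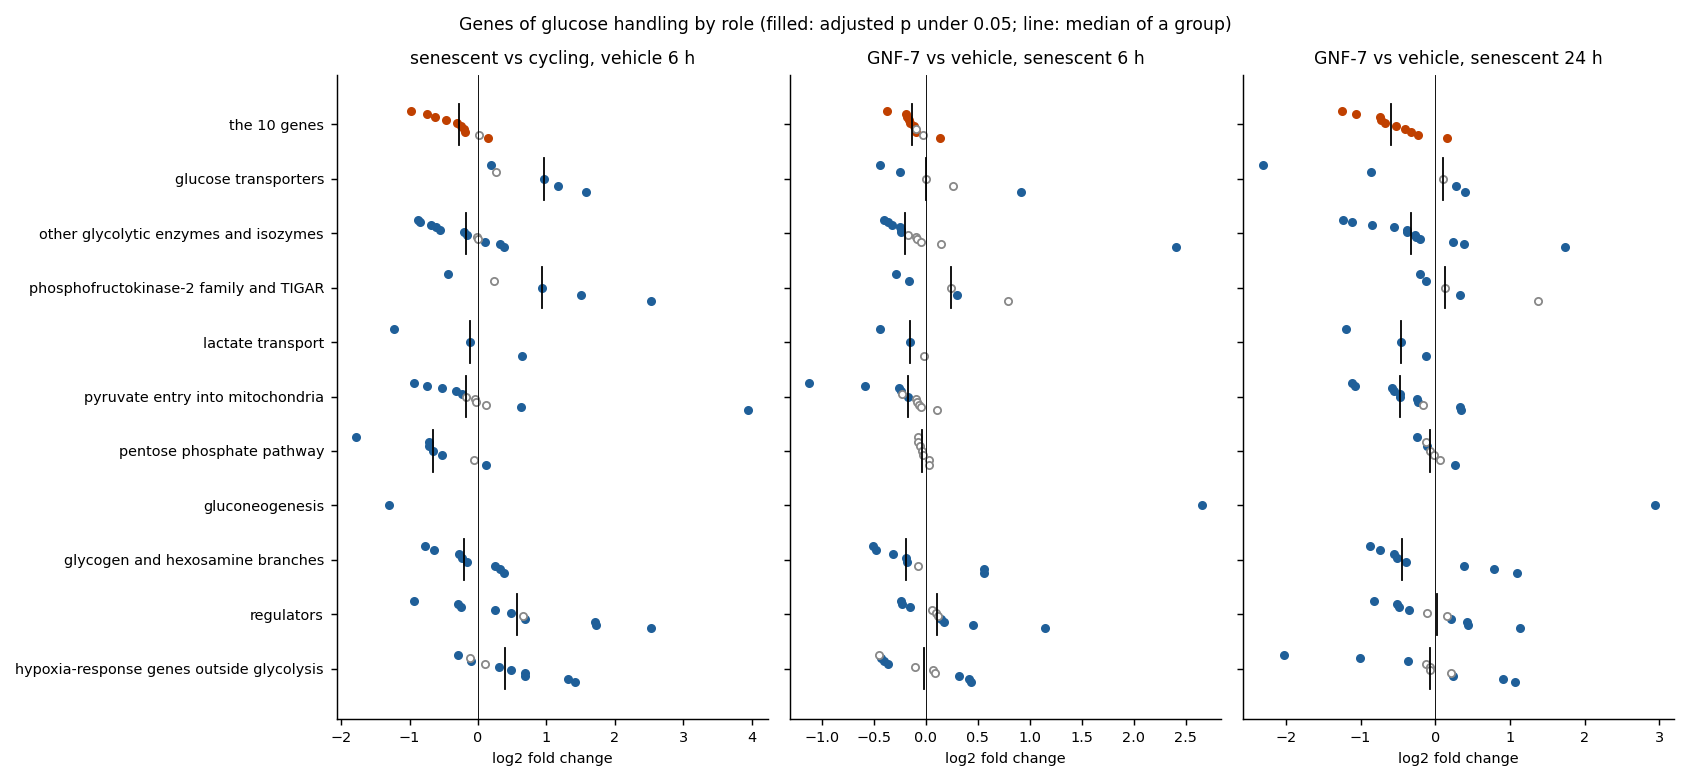
log2 fold change (horizontal axis) of each tested gene of glucose handling, by role, in 3 comparisons; filled points have an adjusted p under 0.05 and black lines are the medians of a role. The 10 genes (top row) have medians of -0.279, -0.136 and -0.594, and the pentose phosphate row has no filled point with GNF-7 at 6 h.

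The members' profiles over the 15 libraries were compared as a description, since libraries of a group share its condition. Against the mean standardised log2 CPM of the other 9, Pearson's r was 0.994 for LDHA, 0.953 for ENO1, 0.925 for HK1 and 0.913 for PFKP. It lay between 0.833 and 0.862 for PKM, PGK1, SLC2A1 and GAPDH. HK2 (0.437) and ALDOA (0.457) stood apart from the rest. Among 10513 protein-coding genes outside the 10, the profiles most like the members' mean were those of GNAI2 (r = 0.9957), CNN3 (0.9925), ANPEP (0.9923), NMT2 (0.9901) and KRT8 (0.99). CNN3, for example, had 480.5 CPM in cycling cells, then 304 and 388 CPM in the senescent vehicle groups at 6 h and 24 h, and 230.3 and 122 CPM with GNF-7 at 6 h and 24 h.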

How the data were processed

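The authors deposited 1 table of raw counts per Ensembl gene, without normalization. Per the submitters' processing notes, bcl2fastq 2.20.0.422, STAR 2.7.9a, featureCounts 1.5.1 and GRCh38 were used, and a stranded mRNA preparation was used per the labels' protocols. The annotation release, the strand setting and the treatment of shared exons are not given in the sources used here. Columns were matched to libraries by library name. Of 60673 lines, 3 that hold 1 broken entry (at most 0.00475% of a library) were left out. Symbols came from a name table, which held 99.55% of identifiers. Exons are from GENCODE 29.

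Counts were tested with edgeR 4.0.16 (R 4.3.3; quasi-likelihood, robust, TMM, filterByExpr) in 1 fit of all 15 libraries with a term per group. P-values were adjusted by Benjamini-Hochberg over 18563 genes and called under 0.05. CPM uses TMM-scaled library sizes. SE is the log2 fold change divided by the square root of F. The biological coefficient of variation was 4.64%. Library pairs within a group differed by more than sampling noise. In simulated counts for GNF-7 at 6 h (17950 genes, 200 changed 2-fold), edgeR recovered 154 with 7 false calls. Shares and ratios used exact permutation tests. The alternatives were RLE factors, total counts, no filter, a mean of at least 5 CPM, DESeq2 1.42.0, limma 3.58.1 voom, only the groups compared, a replicate term, leaving out mitochondrial genes and leaving out each library. Counting the members without ALDOA, and comparing with abundant genes, were chosen after seeing the data. The members, the lists and the rule for named genes were chosen with earlier results of these data known. By that rule the 10 genes, their isozyme partners, HIF1A, MYC and TXNIP were named, with the 3 largest rises and falls per comparison among called pathway genes at a mean of at least 5 CPM. Not all are printed, and SLC16A3 was named after its values were seen.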

Additional observations from a re-analysis of the deposited data

Results flagged for a closer look

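For the genes named in this section, the GNF-7 effect at 24 h differed from that at 6 h by the test of the difference itself (edgeR, adjusted p under 0.05, values in log2 units, 24 h minus 6 h, 3 libraries a group). Among the 10 genes the differences were -0.96 for SLC2A1, -0.88 for LDHA, -0.56 for ENO1, -0.56 for PKM, -0.48 for PGK1, -0.40 for GAPDH, -0.31 for HK1, -0.21 for PFKP and -0.17 for ALDOA. All 9 were more negative at 24 h.

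Enzymes and isozymes beside them gave -0.87 for ALDOC, -0.71 for PGAM1, -0.61 for TPI1, -0.31 for GPI, -0.28 for LDHB and -0.22 for PFKM, whereas ENO2 gave 0.57. The carriers gave -2.06 for SLC2A12, -0.52 for SLC2A3, whose rise was smaller at 24 h, and -0.43 for SLC16A1. Genes around pyruvate gave -1.04 for PC, -0.53 for PDP1, -0.21 for DLAT (adjusted p = 0.0486), 0.30 for PCK2 and 1.46 for PDK2, which fell at 6 h and rose at 24 h. In the glycogen and hexosamine branches the values were -0.22 for PGM1, 0.53 for GFPT1 and 0.70 for GFPT2. GFPT2 also fell at 6 h and rose at 24 h. The regulators gave -0.67 for HIF1A, which rose at 6 h and fell at 24 h, 0.69 for EPAS1 and -0.72 for TXNIP. CA9 gave -1.59.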

How the results depend on the processing

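Of 1440 values of the 10 genes under the alternatives, 1381 kept their direction and their side of the threshold, 27 were no longer called, 11 became called and 21 changed sign. Only 1 of those 21 was called as reported, the lower PKM in GNF-7 cells at 6 h against cycling cells, at 0.0398 with genes under a mean of 5 CPM left out. That filter moved the log2 values of genes tested in both fits by a median of 0.151, 0.101 and 0.204 (senescence, GNF-7 at 24 h, GNF-7 at 6 h against cycling), and total counts did so by 0.133 in senescence, -0.11 between the vehicle times and 0.145 for GNF-7 at 6 h against cycling. The causes of the shifts below were not tested.

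With a mean of at least 5 CPM, 5 of 10 members were called with GNF-7 at 6 h, in place of 8. Leaving out single libraries gave 6 to 9 there, 9 to 10 with GNF-7 at 24 h and 8 to 9 for the difference between times. The shares of all genes called in those fits are not given here, so these counts are not read against them. Without ALDOA, 8 of 9 were called in senescence and 9 of 9 with GNF-7 at 24 h, where 70.0% and 58.9% of all genes were. The members' share of counts, whose differences were -0.256 percentage points with senescence, -0.523 with GNF-7 at 24 h and 0.161 between the vehicle times, became -0.148 (without GAPDH) and -0.154 (outside mitochondrial genes) with senescence, -0.376 with GNF-7 at 24 h without GAPDH, and 0.284 outside mitochondrial genes and 0.0671 without GAPDH between the vehicle times. All of these kept their sign.

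The following values changed sign. For senescence, PFKL was 0.00726 (RLE), 0.132 (total counts), 0.0155 (no filter), 0.150 (at least 5 CPM), 0.00727 (DESeq2), 0.0158 (without mitochondrial genes) and 0.0578 (only the groups compared), and from -0.0276 to 0.00818 with a library left out. Not called as reported, PFKL was called higher by edgeR with total counts (adjusted p = 0.00369) and with at least 5 CPM (0.000958). CA9 was 0.0106 with total counts and 0.0286 with at least 5 CPM, and PC was 0.0927, 0.111 and, with only the groups compared, 0.0187 (-0.0989 to 0.0147 with a library left out). For GNF-7 at 6 h with at least 5 CPM, PFKP was 0.0235, PFKM 0.00139, SLC16A1 0.0303 and PC 0.00823, and with a library left out SLC16A1 ran from -0.049 to 0.00441 and PC from -0.102 to 0.00814. For the difference between times, HK2 was -0.00104 (RLE), -0.000869 (DESeq2) and -0.00443 (without mitochondrial genes), and from -0.0313 to 0.0639 with a library left out, as RPIA was from -0.162 to 0.0286. Between the vehicle times with total counts, PFKP was -0.0848, ALDOA -0.0289 and PCK2 -0.0256, and with a library left out SLC2A1 ran from -0.0972 to 0.00655 and RPIA from -0.187 to 0.00411. For GNF-7 at 6 h against cycling, ALDOA was 0.00776 (RLE), 0.136 (total counts), 0.194 (at least 5 CPM), 0.00756 (DESeq2), 0.0134 (without mitochondrial genes) and 0.0315 (only the groups compared), and from -0.0499 to 0.0272 with a library left out. Not called as reported, ALDOA was called higher by edgeR with total counts (adjusted p = 0.00633) and with at least 5 CPM (0.000161). In that comparison PFKL, called lower as reported, was 0.0567 and not called with total counts. With at least 5 CPM it was 0.115 and called higher by edgeR (adjusted p = 0.00916). PC was 0.0607 with total counts and 0.119 with at least 5 CPM, and PDP1 ran from -0.014 to 0.077 with a library left out.

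Whether replicate numbers pair the libraries was not settled. The correlation of deviations, over all tested genes alike, lay between -0.0369 and 0.0579 in 30 same-numbered pairs, 0 of them over 0.1. Of the 15 libraries 8 correlated best with their own number. Replicate 2 had the largest mitochondrial share in each senescent group (12.4%, 15.3%, 18.7% and 24.1%) and the smallest in cycling cells (3.75%). With the replicate block, 9 of 10 members were called with GNF-7 at 6 h (SLC2A1 added, adjusted p = 0.0235), and 7481 of all genes in place of 7286. The other comparisons gave the same counts of members. With 3 libraries a group, exact tests of shares and ratios could not go below 0.1. Depth set no limit for the 10 genes, the lowest of which had 1915 counts in a library.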
